A study of Mus musculus with 14 samples.

Results

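The genes described here were 10 transcripts of the ATF4 arm of the integrated stress response, taken by symbol from the 19525 genes counted in 14 libraries of 4T1 tumor spheroids. They comprised the transcription factors *Atf4*, *Atf5* and *Ddit3*, the stress effectors and brakes *Trib3*, *Chac1*, *Ddit4* and *Sesn2*, and the amino acid enzymes *Asns*, *Psat1* and *Phgdh*. All 10 were found, with 111 to 6054 counts in every library, and none was removed by a filter on low counts. When *Dhps* was silenced, *Chac1* and *Ddit3* rose by 2.18-fold and 1.70-fold. *Atf4* itself measured 1.17-fold, which did not pass the test in the main fit but did in 1 of 17 alternative fits. Added aspartate moved none of the 10 past the threshold, and 0 of all 19525 genes were called in that comparison.

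In the integrated stress response, kinases that sense amino acid shortage, unfolded protein, viral RNA or lack of heme phosphorylate the translation initiation factor eIF2α. General initiation then falls, while short upstream reading frames let ribosomes translate the *Atf4* mRNA more often. ATF4 protein pairs with other leucine zipper factors such as C/EBP proteins and switches on genes for amino acid supply, for feedback and, under lasting stress, for cell death. The libraries measured RNA, so neither ATF4 protein nor the phosphorylation of eIF2α was measured.

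4T1 is a mouse mammary cancer cell line used as a model of triple-negative disease, and the spheroids were 3-dimensional aggregates of its cells. All of them spent 5 days in LLM, a lung-like medium set to the nutrient levels of lung interstitial fluid, with horse serum. In the controls the hairpin was a scrambled one (shSCR), and the medium held 700 µM aspartate in ASP shSCR (replicates 1 to 4) and no added aspartate in NoASP shSCR (replicates 2 to 4). The knockdowns were ASP shGRIN2D (replicates 1 to 3), in which the hairpin targets an NMDA receptor subunit, and ASP shDHPS (replicates 1 to 4), in which it targets *Dhps*, and both received aspartate. DHPS, deoxyhypusine synthase, carries out the first step of hypusination, the modification that activates the translation factor eIF5A. The hairpins were delivered by lentivirus to polyclonal, puromycin-selected cells, and the libraries include no knockdown grown without aspartate. The mRNA came from cytosolic lysate of cells washed with cycloheximide, an inhibitor of translation elongation.

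Total counts lay between 12731123 and 23231378 per library, and levels are given as CPM, read counts scaled to a common library total with TMM factors. *Dhps* measured 6.93 ± 1.74 CPM (SD, n = 4) in ASP shDHPS and 19.4 ± 2.28 CPM (SD, n = 4) in ASP shSCR. *Grin2d* measured 2.46 ± 0.590 CPM (SD, n = 3) in ASP shGRIN2D against 3.598 ± 0.423 CPM (SD, n = 4) in the control. The log2 fold change of -0.55 missed the threshold (edgeR quasi-likelihood test, adjusted p = 0.516), so this gene gives no check of the ASP shGRIN2D labels. The epithelial markers *Epcam*, *Krt8*, *Krt18* and *Cdh1* were abundant in every library. *Epcam* was lower in ASP shDHPS (log2 fold change -0.52, edgeR adjusted p = 0.000779) and *Krt18* in ASP shGRIN2D (-0.46, edgeR adjusted p = 0.0190). Of 3 receptors listed as low in triple-negative cells, *Pgr* was not in the table. In ASP shSCR, mean *Esr1* was 6.12 CPM and mean *Erbb2* 83.7 CPM, so *Erbb2* RNA was not low. *Esr1* was called lower in ASP shGRIN2D, at 3.44 CPM (log2 fold change -0.83). Of 7 detected markers of leukocytes, endothelium, fibroblasts and red cells, *Ptprc*, *Pecam1*, *Cdh5*, *Dcn* and *Hba-a1* had at most 12 counts in any library. The sum of the 7, mostly *Pdgfra* and *Cd68*, was 33.6 to 54.0 CPM in ASP shSCR and 36.4 to 46.3 CPM in ASP shDHPS. It was 35.8 to 44.1 CPM in NoASP shSCR and 36.5 to 37.3 CPM in ASP shGRIN2D. Mean *Cd68* was 9.45 CPM in ASP shSCR and 13.8 CPM in ASP shDHPS, while *Pdgfra* went the other way, from 33.1 to 26.6 CPM. By edgeR, 0 of the 7 were called between these groups, and 4 had an unadjusted p under 0.05 (19.3% of all genes). In bulk RNA, fewer cells of a type and less RNA per cell cannot be told apart.

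Replicate 2 of both shSCR groups stood apart from its group for several of the 10 genes, and values that it moved by over 1.5 times are given with and without it for *Ddit3*, *Ddit4*, *Trib3* and the aspartate comparison. *Ddit4* was 2.601 times the mean of the other ASP shSCR libraries in ASP shSCR replicate 2, and 2.57 times that of the other NoASP shSCR libraries in NoASP shSCR replicate 2. For *Ddit3* and *Trib3* the ratio was 1.91 and 1.89 in ASP shSCR replicate 2, but 0.891 and 1.24 in NoASP shSCR replicate 2. Leaving out a library that is extreme for a gene narrows the spread of that gene in advance. Adjusted p-values of *Ddit3*, *Ddit4* and *Trib3* without replicate 2 depend on that choice and are not separate support.

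A gene was called at a Benjamini-Hochberg adjusted p under 0.05 over all 19525 genes in edgeR's quasi-likelihood test, with all 14 libraries in 1 fit. In ASP shDHPS against ASP shSCR, 2 of the 10 genes were called, both higher, where 1.65% of all genes were called higher and 4.22% in either direction. DESeq2 called 3 of the 10, *Asns* in addition, and 11% of the genes it gave an adjusted p, while 5 of the 10 and 19.3% of all genes had an unadjusted p under 0.05 by edgeR. In ASP shDHPS against ASP shGRIN2D, 3 of 10 were called, all higher (1.2% of all genes higher, 2.82% in either direction). DESeq2 called 3 there as well (6.83% of its genes), and 6 of the 10 had an unadjusted p under 0.05 by edgeR (14.8% of all genes). ASP shGRIN2D against ASP shSCR gave 0 of 10 calls by edgeR and 0 by DESeq2, with 2 genes at an unadjusted p under 0.05, where edgeR called 1.16% of all genes and DESeq2 3.36%, and 10.4% had an unadjusted p under 0.05. ASP shSCR against NoASP shSCR gave 0 of 10 by both tools, with 0 genes at an unadjusted p under 0.05, where 0% of all genes were called and 2.17% had an unadjusted p under 0.05. Both knockdowns were compared with the same 4 ASP shSCR libraries, and the 2 comparisons of ASP shDHPS share its 4 libraries, so these counts are not independent of each other.

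**Figure D1:**
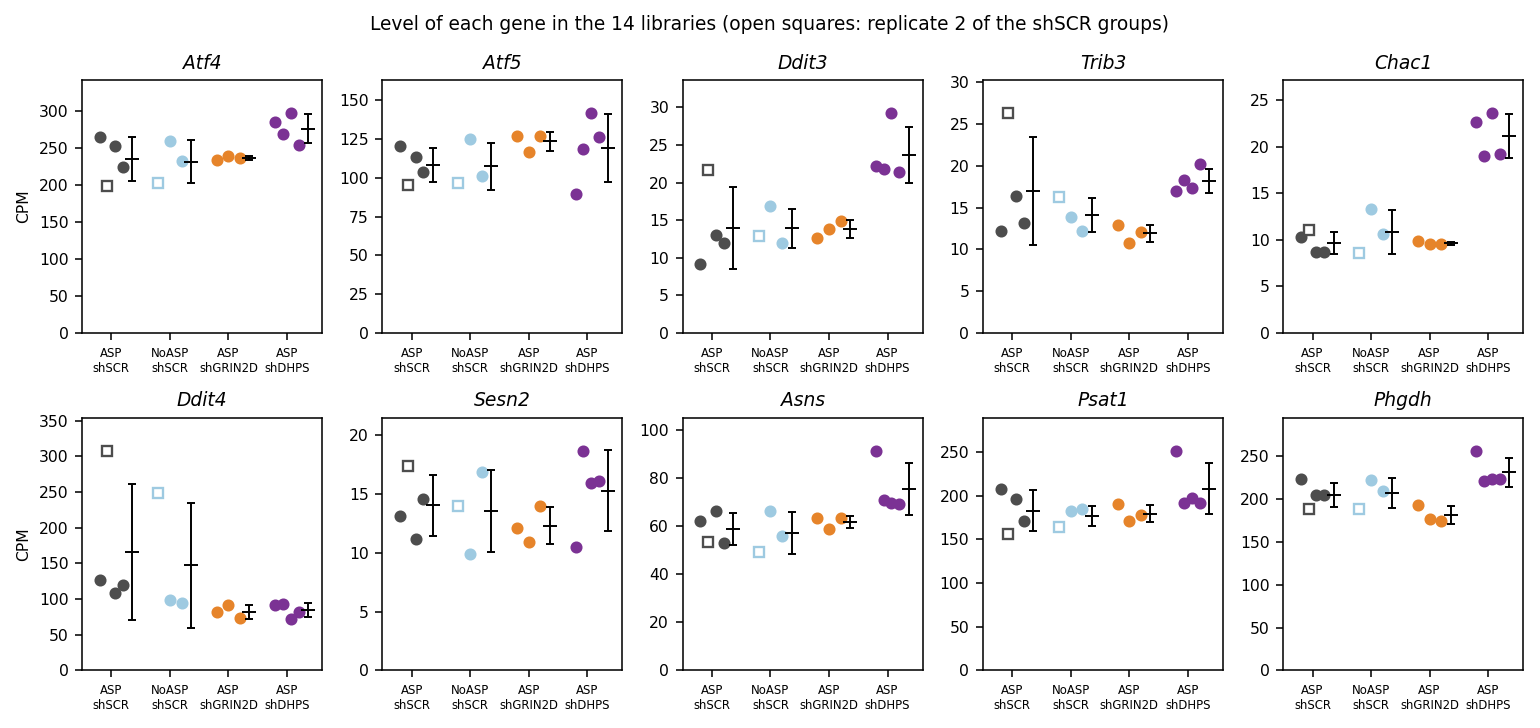
Level of each of the 10 genes in CPM (y axis, from 0) in the 14 libraries by group (x axis). Each point is 1 library, open squares are replicate 2 of the shSCR groups, and the bar to the right of each group is the mean ± SD. All 4 ASP shDHPS points lie above all other points for *Chac1*, and the open squares lie far above the other points for *Ddit4*.

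The median log2 fold change of the 10 genes was 0.18 in ASP shDHPS against ASP shSCR (0.0046 over all genes), with 9 of 10 above 0, against 49.2% of the genes averaging 5 CPM or more. Against ASP shGRIN2D it was 0.30 (0.011 over all genes), again with 9 of 10 above 0, against 50.5% of such genes. All libraries of ASP shDHPS lay above all of ASP shSCR for 2 of the 10 genes, *Chac1* and *Asns* (5.25% of all genes), and below them for *Ddit4* (5.8% of all genes). Against ASP shGRIN2D, 7 of the 10 genes had all 4 ASP shDHPS libraries above all 3 ASP shGRIN2D libraries, an arrangement found in 7.61% of all genes and in 11.2% of those averaging 5 CPM or more. These were *Atf4*, *Ddit3*, *Trib3*, *Chac1*, *Asns*, *Psat1* and *Phgdh*. In ASP shGRIN2D against ASP shSCR the median was -0.021 (0 over all genes), and in ASP shSCR against NoASP shSCR it was 0.032 (0.00087 over all genes). By group mean, 8 of the 10 genes were highest in ASP shDHPS and 6 were lowest in ASP shGRIN2D. This order was not counted over all genes, so no share stands beside these counts.

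**Figure D2:**
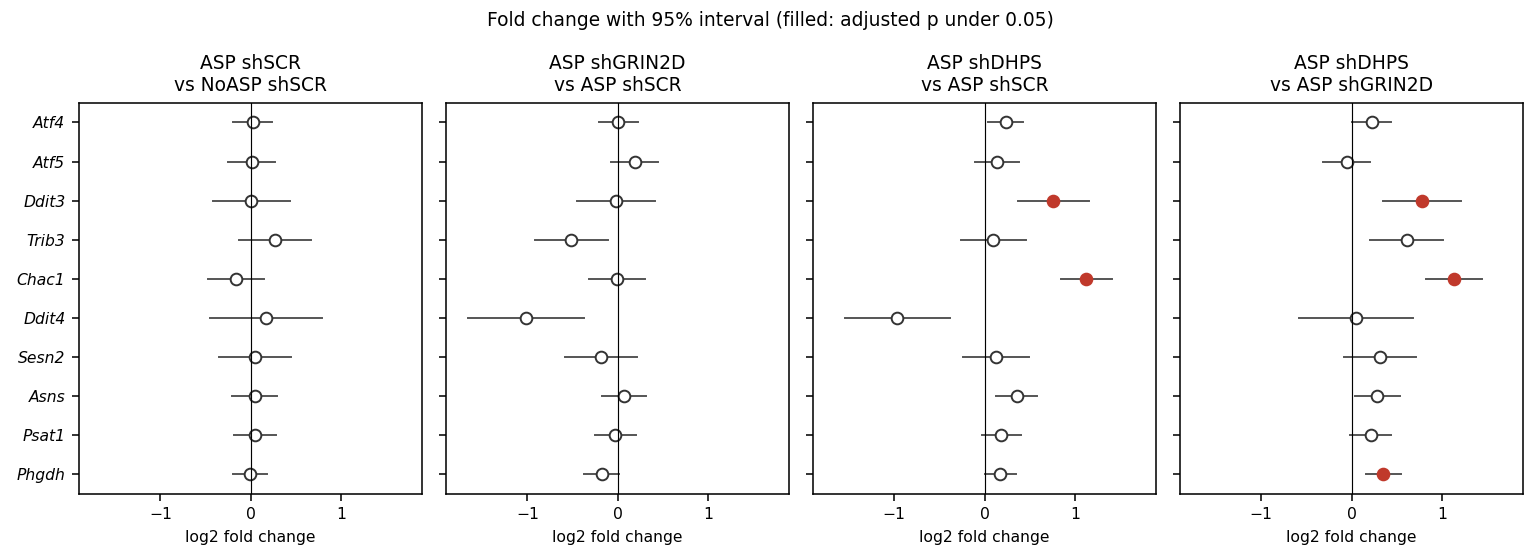
Log2 fold change (x axis) of each of the 10 genes in the 4 comparisons (panels). Points are edgeR estimates, lines their 95% intervals, and filled points passed an adjusted p of 0.05. Filled points are *Ddit3* and *Chac1* in the third panel and *Ddit3*, *Chac1* and *Phgdh* in the last.

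Among the transcription factors, *Atf4* (ENSMUSG00000042406), the factor that gives the program its name, measured 265, 199, 253 and 225 CPM in ASP shSCR replicates 1 to 4 and 286, 269, 297 and 254 CPM in ASP shDHPS replicates 1 to 4. It measured 203, 260.2 and 233 CPM in NoASP shSCR and 234, 239 and 237 CPM in ASP shGRIN2D. The lowest ASP shDHPS library lay under the highest ASP shSCR library, so these groups overlapped, while all ASP shDHPS libraries lay above those of ASP shGRIN2D. The log2 fold change was 0.23 against ASP shSCR (95% interval 0.034 to 0.43, edgeR adjusted p = 0.182) and 0.22 against ASP shGRIN2D (0.0091 to 0.44, edgeR adjusted p = 0.313). Against ASP shSCR it was called in 1 of 17 alternative fits, the one with a replicate block (edgeR adjusted p = 0.0447). Against ASP shGRIN2D it was called in 0 of 15.

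*Atf5*, a related leucine zipper factor that is likewise controlled through upstream reading frames, lay between 89.6 and 142 CPM over all libraries. Its group means were 108 ± 11.02 CPM (SD, n = 4) in ASP shSCR, 124 ± 6.003 CPM (SD, n = 3) in ASP shGRIN2D and 119 ± 21.9 CPM (SD, n = 4) in ASP shDHPS. No comparison of *Atf5* passed the threshold, and its log2 fold change of -0.05 against ASP shGRIN2D was the lowest of the 10 genes there.

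*Ddit3* (ENSMUSG00000025408) encodes CHOP, a leucine zipper factor that ATF4 induces and that takes part in stress-induced cell death. It measured 22.2, 21.9, 29.2 and 21.4 CPM in ASP shDHPS replicates 1 to 4, against 9.14, 21.7, 13.1 and 11.9 CPM in ASP shSCR replicates 1 to 4. Levels were 12.8, 16.9 and 11.96 CPM in NoASP shSCR and 12.6, 13.9 and 14.9 CPM in ASP shGRIN2D. ASP shSCR replicate 2 lay within the range of ASP shDHPS, and each of the other 9 libraries without the *Dhps* hairpin lay under it. The group means were 23.7 ± 3.72 CPM (SD, n = 4) in ASP shDHPS and 13.97 ± 5.42 CPM (SD, n = 4) in ASP shSCR. *Ddit3* rose by 1.70-fold, or 0.76 on the log2 scale (standard error 0.19, edgeR adjusted p = 0.0217). Without replicate 2 of both shSCR groups the log2 fold change was 1.07 (edgeR adjusted p = 0.000234). The call was lost without ASP shSCR replicate 1 (log2 fold change 0.60, edgeR adjusted p = 0.0634), ASP shSCR replicate 4 (0.70, adjusted p = 0.0690) or ASP shDHPS replicate 3 (0.64, adjusted p = 0.0971). Against ASP shGRIN2D the log2 fold change was 0.78 (standard error 0.21, edgeR adjusted p = 0.0402), with no overlap between the groups, and the call was lost in 6 of 7 fits that left out 1 library, all but the one without ASP shDHPS replicate 4, at an adjusted p of up to 0.208. In the GENCODE M21 annotation of GRCm38, the 3′ end of *Ddit3* shares 68 bases with *Mars1* on the other strand, and 2925 bases lie on the same strand in a second gene model also named *Ddit3*, which strand cannot separate. The libraries were stranded, but the strand setting of the counting was not given in the sources used here. *Mars1*, methionyl-tRNA synthetase, had a log2 fold change of 0.19 in ASP shDHPS against ASP shSCR (edgeR adjusted p = 0.232).

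Among the effectors, *Chac1* (ENSMUSG00000027313), a γ-glutamyl cyclotransferase that degrades glutathione and is a well-known ATF4 target, had the largest log2 fold change of the 10 genes in both comparisons of ASP shDHPS. Its promoter is shown because it changed most, with matches to 2 forms of the site bound by ATF4 with C/EBP proteins in capitals. The forms searched, on both strands, were TGATGNAA and TGNNGCAAT, and 1 stretch of bases can match both. The sequences are from RefSeq windows of GRCm38.p6, a build other than that of the counts, read 5′ to 3′ on the strand of the gene. Those of *Chac1*, *Ddit3* and *Ddit4* end before the annotated transcript starts.
Chac1, chr2:119350992-119351228, plus strand: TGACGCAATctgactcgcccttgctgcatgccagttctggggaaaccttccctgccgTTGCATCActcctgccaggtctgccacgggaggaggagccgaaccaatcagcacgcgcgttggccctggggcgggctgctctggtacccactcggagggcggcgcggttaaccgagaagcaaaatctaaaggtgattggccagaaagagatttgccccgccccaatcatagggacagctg

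Levels of *Chac1* were 22.7, 19.0, 23.6 and 19.2 CPM in ASP shDHPS replicates 1 to 4 and 10.3, 11.03, 8.67 and 8.72 CPM in ASP shSCR replicates 1 to 4. NoASP shSCR gave 8.57, 13.3 and 10.7 CPM and ASP shGRIN2D 9.84, 9.51 and 9.60 CPM. Every ASP shDHPS library lay above each of the 10 others. Counts were 285 to 437 in ASP shDHPS, with a mean of 21.1 ± 2.37 CPM (SD, n = 4). They were 111 to 235 in ASP shSCR, with a mean of 9.67 ± 1.17 CPM (SD, n = 4). *Chac1* rose by 2.18-fold against ASP shSCR, or 1.12 on the log2 scale (standard error 0.14, edgeR adjusted p = 6.4e-05). Against ASP shGRIN2D it rose by 2.19-fold (log2 fold change 1.13, standard error 0.15, edgeR adjusted p = 8.88e-05). It was called in all 17 alternative fits of the first comparison and all 15 of the second, with log2 fold changes between 1.04 and 1.196 and between 1.07 and 1.18. In order of group mean, ASP shDHPS was followed by NoASP shSCR, ASP shSCR and ASP shGRIN2D. The log2 fold change between the control groups was -0.16 (edgeR adjusted p = 1) and between ASP shGRIN2D and ASP shSCR -0.0064 (95% interval -0.32 to 0.31).

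The promoter windows of the 10 genes, 250 bases before to 50 after a RefSeq start, were all present. The form TGATGNAA was found in 3 of the 10 genes, against 4.51% of 27025 genes with a window, and TGNNGCAAT in 3 of 10, against 2.46%. Either form was found in *Chac1*, *Trib3*, *Asns* and *Psat1* (6.62% of all genes). The 10 genes were listed as members of the ATF4 pathway, so these shares are no test of the site. *Chac1* and *Trib3* held both forms, and only *Chac1* of these 4 genes was called in a comparison of the main edgeR fit. *Asns* and *Trib3* were called in some alternative fits. *Ddit3*, which also rose, held neither, nor did *Ddit4*, whose levels were lower in both knockdown groups. No match says only that these letters are not in the window. Both promoters are shown for comparison with that of *Chac1*, with no capitals since there was no match.
Ddit3, chr10:127290543-127290773, plus strand: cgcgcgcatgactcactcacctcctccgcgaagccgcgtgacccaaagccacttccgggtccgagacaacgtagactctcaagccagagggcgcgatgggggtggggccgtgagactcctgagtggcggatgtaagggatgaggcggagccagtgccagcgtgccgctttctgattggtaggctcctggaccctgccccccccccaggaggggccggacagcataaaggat
Ddit4, chr10:59951835-59952020, minus strand: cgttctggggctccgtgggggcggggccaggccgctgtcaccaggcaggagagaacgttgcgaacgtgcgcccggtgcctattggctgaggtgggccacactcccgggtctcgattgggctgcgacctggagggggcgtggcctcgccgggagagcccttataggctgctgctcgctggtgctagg

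The sites of the remaining 3 genes are shown as 30 bases with the match in capitals, read on the strand of the gene. In the GENCODE M21 annotation, the stretches of *Asns* and *Psat1* lie inside the gene, and the first of *Trib3* crosses its start. Relative to the RefSeq start, the first match given for *Trib3* spans bases 15 to 22 and the other bases -33 to -25, that in *Asns* bases -23 to -16 and that in *Psat1* bases -136 to -128. The matches in *Chac1* span bases -250 to -242 and -193 to -186.
Trib3, chr2:152344028-152344057, minus strand: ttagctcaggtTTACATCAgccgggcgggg
Trib3, chr2:152344074-152344103, minus strand: gggtcacagaTGGTGCAATcccgggccgct
Asns, chr6:7693214-7693243, minus strand: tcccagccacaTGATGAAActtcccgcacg
Psat1, chr19:15925176-15925205, minus strand: cgcgggtggcTGGTGCAATcccctgctctc

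Of the brakes, *Ddit4* (ENSMUSG00000020108), also known as REDD1, an inhibitor of mTORC1 that ATF4, hypoxia and glucocorticoids induce, had the lowest fold change of the 10 genes in both knockdowns. It measured 127, 308, 108 and 119.9 CPM in ASP shSCR replicates 1 to 4 and 248, 99.1 and 94.2 CPM in NoASP shSCR replicates 2 to 4. Levels were 81.4, 91.5 and 72.9 CPM in ASP shGRIN2D and 91.9, 93.7, 71.5 and 82.5 CPM in ASP shDHPS. Every library of both knockdowns lay under every shSCR library, with and without aspartate, by as little as 93.7 against 94.2 CPM. Against ASP shSCR such an arrangement with the knockdown lower was found in 6.4% of all genes for ASP shGRIN2D and in 5.8% for ASP shDHPS. With all libraries, the log2 fold change was -1.02 in ASP shGRIN2D (edgeR adjusted p = 0.144) and -0.97 in ASP shDHPS (edgeR adjusted p = 0.0524), neither past the threshold. Without replicate 2 of both shSCR groups, *Ddit4* fell by 0.53 on the log2 scale in ASP shGRIN2D (edgeR adjusted p = 0.0135) and by 0.48 in ASP shDHPS (edgeR adjusted p = 0.0113). In those fits 1.23% and 2.9% of all genes were called. Replicate 2 was extreme for *Ddit4* itself, so these adjusted p-values depend on leaving it out. Without ASP shSCR replicate 2 alone, the log2 fold changes were also -0.53 and -0.48 but did not pass (edgeR adjusted p = 0.446 and 0.294). ASP shDHPS also passed the threshold without ASP shSCR replicate 1 (log2 fold change -1.07, edgeR adjusted p = 0.0418), 3 (-1.12, adjusted p = 0.0246) or 4 (-1.09, adjusted p = 0.0453). ASP shDHPS and ASP shGRIN2D differed in *Ddit4* by 0.05 on the log2 scale (95% interval -0.58 to 0.68).

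*Trib3*, a pseudokinase that ATF4 induces and that feeds back on ATF4, measured 12.9, 10.8 and 12.1 CPM in ASP shGRIN2D and 17.0, 18.3, 17.3 and 20.2 CPM in ASP shDHPS. It measured 12.2, 26.3, 16.4 and 13.1 CPM in ASP shSCR and 16.2, 13.9 and 12.2 CPM in NoASP shSCR. The knockdown groups did not overlap, and ASP shSCR spanned both. The log2 fold change of ASP shDHPS against ASP shGRIN2D was 0.61 (standard error 0.19, edgeR adjusted p = 0.102), and it became a call without replicate 2 of both shSCR groups (0.62, edgeR adjusted p = 0.00490, where 4.35% of all genes were called). Neither knockdown passed the threshold against ASP shSCR, at -0.51 for ASP shGRIN2D (edgeR adjusted p = 0.298) and 0.10 for ASP shDHPS (edgeR adjusted p = 0.818). Without replicate 2 of both shSCR groups these were -0.23 (edgeR adjusted p = 0.647) and 0.39 (edgeR adjusted p = 0.106).

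*Sesn2*, a leucine sensor that restrains mTORC1, lay between 9.92 and 18.7 CPM in the 14 libraries. Its group means ran from 12.3 ± 1.54 CPM (SD, n = 3) in ASP shGRIN2D to 15.3 ± 3.45 CPM (SD, n = 4) in ASP shDHPS, and no comparison passed the threshold. Within ASP shDHPS, replicate 1 was the lowest library at 10.5 CPM, under 15.9 to 18.7 CPM in the others.

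The 3 enzymes supply amino acids. PHGDH and PSAT1 catalyze the first steps of serine synthesis from a glycolytic intermediate, and ASNS makes asparagine from aspartate. *Phgdh* (ENSMUSG00000053398) measured 193, 176 and 174 CPM in ASP shGRIN2D, 256, 222, 224 and 223 CPM in ASP shDHPS, 223, 188, 204 and 204 CPM in ASP shSCR, and 188, 223 and 209.6 CPM in NoASP shSCR. All ASP shDHPS libraries lay above those of ASP shGRIN2D, and the control libraries lay across both. *Phgdh* rose by 1.28-fold in ASP shDHPS against ASP shGRIN2D (log2 fold change 0.35, standard error 0.091, edgeR adjusted p = 0.0363). Neither knockdown differed from ASP shSCR past the threshold, at 0.17 for ASP shDHPS (edgeR adjusted p = 0.260) and -0.18 for ASP shGRIN2D (edgeR adjusted p = 0.516). The call was lost in 6 of 7 fits that left out 1 library, all but the one without ASP shDHPS replicate 4, at an adjusted p of up to 0.177, with the log2 fold change between 0.30 and 0.40.

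*Asns* measured 91.4, 71.0, 69.5 and 69.2 CPM in ASP shDHPS replicates 1 to 4 and 62.1, 53.3, 66.5 and 53.1 CPM in ASP shSCR replicates 1 to 4. Every ASP shDHPS library lay above every other library, with 66.5 CPM the highest of the others. The log2 fold change against ASP shSCR was 0.36 (95% interval 0.13 to 0.58), which did not pass the threshold (edgeR adjusted p = 0.0702). It passed without ASP shSCR replicate 3 (0.42, edgeR adjusted p = 0.0469), and without ASP shDHPS replicate 1 it was 0.25 (edgeR adjusted p = 0.199). In ASP shGRIN2D, *Asns* was 63.2, 58.8 and 63.5 CPM, a log2 fold change of 0.07 against ASP shSCR (edgeR adjusted p = 0.901).

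*Psat1* lay between 156 and 207 CPM in the 10 libraries without the *Dhps* hairpin and measured 252, 192, 197 and 191 CPM in ASP shDHPS replicates 1 to 4. Its log2 fold change was 0.19 against ASP shSCR (edgeR adjusted p = 0.324), and 0.08 without ASP shDHPS replicate 1 (edgeR adjusted p = 0.679). ASP shDHPS replicate 1 was the highest library of its group for all 3 enzymes, at 1.31 times the mean of the others for *Asns*, 1.30 times for *Psat1* and 1.151 times for *Phgdh*, and the lowest for *Sesn2* and *Atf5*, at 0.620 and 0.695 times.

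Aspartate is a substrate of asparagine synthesis, and these transcripts were compared between the control groups with and without it. The values below come from fits without a replicate term, although same-numbered libraries of these groups deviated together. Variation shared by such libraries therefore widens the intervals, and a difference that missed the threshold is not shown to be absent. With all libraries, the largest difference was that of *Trib3*, with 12.2 to 26.3 CPM with aspartate and 12.2 to 16.2 CPM without, and a log2 fold change of 0.27 (95% interval -0.12 to 0.67, edgeR adjusted p = 1). With aspartate the level of *Asns* was 58.7 ± 6.62 CPM (SD, n = 4) and that of *Psat1* 183 ± 23.5 CPM (SD, n = 4). The levels without it were 57.1 ± 8.64 CPM (SD, n = 3) and 177 ± 11.4 CPM (SD, n = 3). The log2 fold changes were 0.04 for *Asns* (95% interval -0.21 to 0.29), 0.05 for *Psat1* (-0.18 to 0.28), -0.01 for *Phgdh* (-0.20 to 0.18) and 0.02 for *Atf4* (-0.19 to 0.24). Intervals were wider for *Ddit4* (-0.45 to 0.79) and *Ddit3* (-0.42 to 0.43). In all 10 genes the groups overlapped, while 2.71% of all genes had groups apart. Without replicate 2 of both groups, the log2 fold change of *Trib3* was 0.091 and the largest was that of *Chac1*, at -0.38 (95% interval -0.70 to -0.056), followed by *Ddit3* at -0.35 (-0.72 to 0.019) and *Ddit4* at 0.29 (0.032 to 0.55). The unadjusted p was 0.0231 for *Chac1* and 0.0292 for *Ddit4* in that edgeR fit, and the adjusted p was 1 for all 10 genes.

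The wider pathway was examined in 3 lists. The initiation switch held 15 genes, namely the eIF2α kinases with their activator *Gcn1*, the subunits of eIF2 and eIF2B and the eIF2α phosphatase adaptors. By edgeR, 0 of the 15 were called in each of the 4 comparisons, with 5 at an unadjusted p under 0.05 in ASP shDHPS against ASP shSCR, 2 in ASP shGRIN2D against ASP shSCR, 1 in ASP shDHPS against ASP shGRIN2D and 0 in ASP shSCR against NoASP shSCR. DESeq2 called 3 of the 15 in ASP shDHPS against ASP shSCR, where it called 11% of its genes, and 0 in the others. The shares of all genes with an unadjusted p under 0.05 were 19.3%, 10.4%, 14.8% and 2.17% in the order of the counts given. *Ppp1r15a*, which encodes the stress-induced phosphatase adaptor GADD34, had a log2 fold change of 0.45 in ASP shDHPS against ASP shSCR (edgeR adjusted p = 0.0816), and *Eif2ak4*, which encodes the amino acid sensing kinase GCN2, one of -0.31 there (edgeR adjusted p = 0.0777). These 2 genes were named after their values were seen.

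Of 35 other known ATF4 targets, 34 were in the table. Against ASP shSCR, 4 were called in ASP shDHPS by edgeR (4.22% of all genes) and 8 by DESeq2 (11% of its genes). By edgeR, *Atf3* and *Slc3a2* were higher and *Cth* and *Iars* lower, and 26 of 34 fold changes were above 0 with a median of 0.15, against 49.2% of the genes averaging 5 CPM or more. *Atf3*, a leucine zipper factor of the stress response, measured 18.7, 14.9, 22.4 and 18.3 CPM in ASP shDHPS and 6.73, 6.01, 9.46 and 7.78 CPM in ASP shSCR, with no overlap. It rose by 1.31 on the log2 scale (standard error 0.17, edgeR adjusted p = 0.000103), and was called in all 17 alternative fits. In ASP shGRIN2D, *Atf3* was 10.97, 12.04 and 10.3 CPM, between both groups, and its log2 fold change of 0.57 against ASP shSCR did not pass the threshold (edgeR adjusted p = 0.183). *Slc3a2*, the shared heavy chain of amino acid exchangers, rose by 0.31 on the log2 scale (edgeR adjusted p = 0.0420), a call lost without ASP shSCR replicate 1, 2 or 4 or ASP shDHPS replicate 3 or 4, at an adjusted p of up to 0.117.

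*Cth*, cystathionine γ-lyase, which makes cysteine, fell from 10.01, 11.03, 7.74 and 10.3 CPM in ASP shSCR to 6.51, 4.73, 3.67 and 6.25 CPM in ASP shDHPS (log2 fold change -0.88, standard error 0.19, edgeR adjusted p = 0.00837), and was called in all 17 alternative fits. It was 5.61, 6.40 and 5.13 CPM in ASP shGRIN2D, where the log2 fold change of -0.77 against ASP shSCR did not pass (edgeR adjusted p = 0.0748), but did without ASP shSCR replicate 3 (-0.87, edgeR adjusted p = 0.0490). *Iars*, isoleucyl-tRNA synthetase, fell by 0.31 on the log2 scale in ASP shDHPS against ASP shSCR (edgeR adjusted p = 0.0249), a call lost without ASP shSCR replicate 2 or 3 or ASP shDHPS replicate 2 or 3, at an adjusted p of up to 0.0867. Of the 12 tRNA synthetases in the list, 10 had a log2 fold change above 0 in that comparison, none of these past the threshold, and the median was 0.15.

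Between the knockdowns, 4 of the 34 were called by edgeR (2.82% of all genes) and 8 by DESeq2 (6.83% of its genes). *Atf3* (log2 fold change 0.74, edgeR adjusted p = 0.0240), *Eif4ebp1* (0.41, adjusted p = 0.00891), an inhibitor of cap-dependent translation, and *Mthfd2* (0.57, adjusted p = 0.0363), an enzyme of mitochondrial one-carbon metabolism, were higher, and *Iars* (-0.32, adjusted p = 0.0431) was lower. Without ASP shGRIN2D replicate 1 none of the 4 was called, at adjusted p of 0.123, 0.0850, 0.0934 and 0.274. *Eif4ebp1* was called in every other fit that left out 1 library, *Atf3* in 3 of 7, and *Mthfd2* and *Iars* in 1 of 7 each. Neither ASP shGRIN2D against ASP shSCR nor ASP shSCR against NoASP shSCR gave a call among the 34 by edgeR, with 3 and 0 genes at an unadjusted p under 0.05, while DESeq2 called 1 in the former and 0 in the latter. Of all genes, 10.4% and 2.17% had an unadjusted p under 0.05, and DESeq2 called 3.36% and 0% of its genes.

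The third list held 15 targets of ATF6 and XBP1, the other branches of the response to unfolded protein, such as the chaperones *Hspa5* and *Hsp90b1*. None of the 15 was called in ASP shDHPS against ASP shSCR by edgeR or DESeq2, with 1 at an unadjusted p under 0.05 and a median log2 fold change of 0.021. Between the knockdowns edgeR called 0 and DESeq2 1, with 3 at an unadjusted p under 0.05, and between the control groups all these counts were 0. In the same order, 19.3%, 14.8% and 2.17% of all genes had an unadjusted p under 0.05. DESeq2 called 11%, 6.83% and 0% of its genes. In ASP shGRIN2D against ASP shSCR, where edgeR called 1.16% of all genes, *Xbp1* was called lower. It measured 73.9, 66.5 and 68.3 CPM, against 118, 108, 105 and 83.9 CPM in ASP shSCR. It fell by 0.58 on the log2 scale (standard error 0.11, edgeR adjusted p = 0.00692), a call lost without ASP shGRIN2D replicate 2 (-0.55, adjusted p = 0.0638) or 3 (-0.57, adjusted p = 0.0570).

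**Figure D3:**
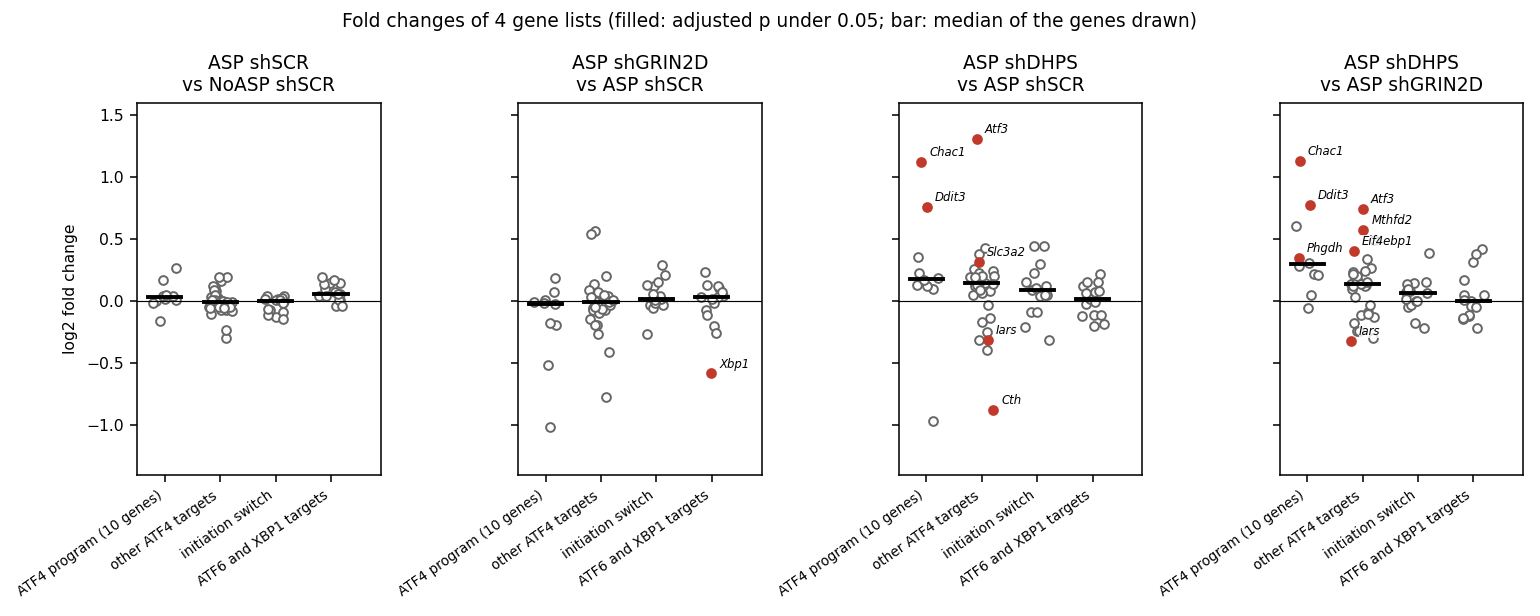
Log2 fold change (y axis) of single genes (points) in the 10 genes described and in the 3 further lists (x axis) for the 4 comparisons (panels). Genes with at least 5 CPM in either group are drawn, filled points passed an adjusted p of 0.05 and are named, and bars are medians. The medians in the third panel were 0.18, 0.15, 0.094 and 0.021 from left to right.

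Whether the 10 genes vary together within a group was tested on the deviations of log2 CPM from the group mean over 14 libraries, for all 45 pairs, with an exact permutation test within groups (20736 arrangements, two-sided). None of the 45 pairs passed a Benjamini-Hochberg adjusted p of 0.05 by Pearson's r or Spearman's rho. The 3 pairs of enzymes had the highest r over 14 libraries, with r = 0.88 and rho = 0.84 for *Psat1* and *Phgdh* (exact permutation p = 0.00198 and 0.00338, adjusted 0.0890 and 0.146). For *Asns* and *Psat1* these were r = 0.85 and rho = 0.86 (exact permutation p = 0.00690 and 0.00651, adjusted 0.150 and 0.146). For *Asns* and *Phgdh* they were r = 0.81 and rho = 0.72 (exact permutation p = 0.0100 and 0.0247, adjusted 0.150 and 0.176). Without the 2 libraries farthest from the median of the first gene named, r was 0.77, 0.84 and 0.65 for the 3 pairs.

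*Atf4* had r of 0.71 with *Asns*, 0.70 with *Psat1* and 0.72 with *Phgdh*, and -0.78 with *Ddit4* and -0.70 with *Trib3*, none past the adjusted threshold by the exact permutation test (adjusted p = 0.167 in each case). Without replicate 2 of both shSCR groups, r was 0.59, 0.51 and 0.44 for the enzymes, -0.084 for *Ddit4* and -0.17 for *Trib3*. The r of *Atf4* with *Chac1* was 0.45 over all libraries and 0.84 without these replicates (rho 0.82, exact permutation p = 0.0440 and 0.0469, adjusted 0.383 and 0.531). By rho over 14 libraries, *Atf4* with *Psat1* and with *Asns*, at 0.80 and 0.79, exceeded *Asns* with *Phgdh*. *Ddit3* and *Trib3* had r of 0.72, and of 0.031 without ASP shSCR replicates 1 and 2, so that value rested on these libraries. *Chac1* and *Ddit3*, which both rose in ASP shDHPS, had r = 0.48 and rho = 0.39 within groups (exact permutation p = 0.141 and 0.257, adjusted 0.298 and 0.526).

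**Figure D4:**
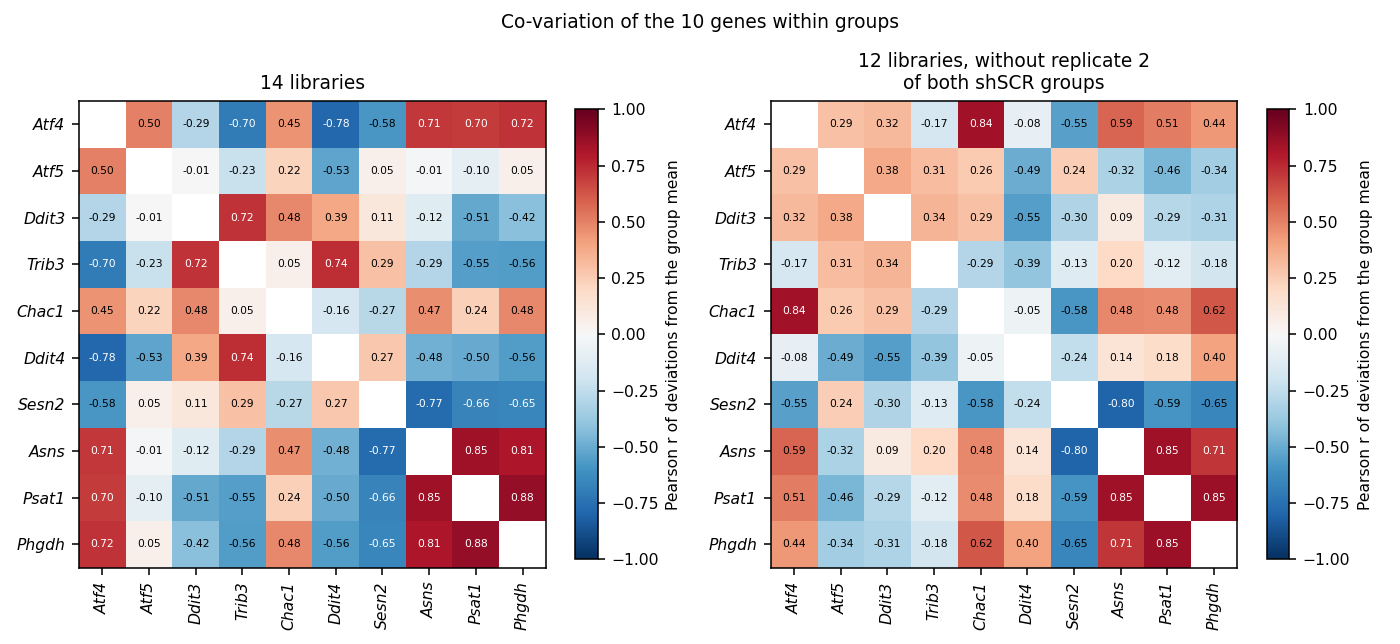
Pearson r (color and number) of deviations of log2 CPM from the group mean for each pair of the 10 genes (both axes), over 14 libraries (left) and over 12 without replicate 2 of both shSCR groups (right). The block of *Asns*, *Psat1* and *Phgdh* at the lower right stays between 0.71 and 0.88, while r of *Atf4* with *Ddit4* goes from -0.78 to -0.084.

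Of 10214 further genes averaging 5 CPM or more, those most like *Atf4* over the 14 libraries were *Gar1*, *Bax* and *Gtf2h3*, with Pearson r of log2 CPM of 0.96 each. The nearest of the 10 genes to *Atf4* was *Asns*, at 0.85. Most like *Trib3* were *Herpud1* (0.91), *Maff* (0.86) and *Rgs16* (0.85). Most like *Asns* were *Bcas2* (0.96), *Kdelr2* (0.94) and *Eif6* (0.94), and most like *Psat1* were *Emd* (0.93), *Cdca4* (0.93) and *Abhd14a* (0.92). These values describe levels across groups that share libraries and depth, and were given no test.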

How the data were processed

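Polyadenylated RNA of 14 libraries was counted per gene. To make the deposited values, the authors trimmed reads with Trim Galore 0.6.6, mapped them to GRCm39 with STAR 2.6.1, made estimated counts with Salmon 1.4.0 and rounded them to whole numbers. The authors removed genes without expression in 2 replicates of at least 1 condition. Where genes overlap in the annotation (*Ddit3*, *Atf5*, *Sesn2* and *Psat1*), the split of reads is an estimate and the values are less certain. The authors' tables of an aspartate comparison (log2 fold changes, p-values and enrichment scores) were not used. Groups and replicate numbers came from the sample descriptions. The methods of the study describe separate spheroid pellets per condition, and p-values measure the spread between these.

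Counts were tested with the quasi-likelihood test of edgeR 4.0.16 in R 4.3.3, with TMM factors (0.984 to 1.02), the group as the only term and Benjamini-Hochberg adjustment over 19525 genes. Log2 CPM used a prior count of 2. All replicates of a group differed beyond counting noise. Total counts were 12731123 to 23231378, so that single libraries held at least 111 counts of each of the 10 genes. All 10 genes were described in each comparison, and of the further lists each called gene. The genes, lists and tests were chosen with earlier results of these data known. Same-numbered libraries of ASP shSCR and NoASP shSCR deviated together (r of 0.514, 0.287 and 0.203 across genes). The fit with a replicate block changed no call among the 10 genes there. Alternatives were DESeq2 1.42.0, RLE factors, no scaling, filterByExpr, a robust prior, a fit of the groups compared, both shSCR groups as control, the block, and leaving out libraries. The fit was checked on simulated data. Promoters came from RefSeq tables of GRCm38.p6, gene overlaps from GENCODE M21.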

Additional observations from a re-analysis of the deposited data

Results flagged for a closer look

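In groups of 4 libraries, the highest or lowest library was compared with its nearest neighbor by Dixon's test at the 95% level. Of 20 such groups of the 10 genes, 5 had a library apart, where chance gives about 1 in 20. With the called genes of the further lists, 34 groups were examined, and the same 5 were flagged. *Ddit4* measured 308 CPM in ASP shSCR replicate 2, and the next library was at 127 CPM. *Ddit3* measured 29.2 CPM in ASP shDHPS replicate 3, next to 22.2 CPM. In ASP shDHPS replicate 1, *Asns* measured 91.4 CPM (next 71.0), *Psat1* 252 CPM (next 197) and *Phgdh* 256 CPM (next 224). These last 3 values come from 1 library and are not independent.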

How the results depend on the processing

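Over the alternatives, 630 values of the 10 genes were computed in the 4 comparisons: 594 stayed on their side of the threshold, 17 lost a call, 19 gained one and none reversed a call, while 52 values that were never called changed sign. The number of the 10 genes called in ASP shGRIN2D against ASP shSCR went from 0 to 1 (*Ddit4*, lower) with the replicate block, with only the groups compared and without replicate 2 of both shSCR groups. In ASP shDHPS against ASP shSCR it went from 2 to 5 with the replicate block (*Atf4*, *Asns*, *Chac1* and *Ddit3* higher, *Ddit4* lower) and to 4 against both shSCR groups (3 higher, 1 lower), and with 1 library left out at a time it ranged from 1 to 4, with 1 without ASP shDHPS replicate 3 and 4 without ASP shSCR replicate 3. In ASP shDHPS against ASP shGRIN2D it went from 3 to 5 with the block and ranged from 1 to 3 with 1 library left out at a time (1 without any ASP shGRIN2D library or ASP shDHPS replicate 1, 2 or 3). The cause of these shifts was not tested. In the knockdown comparisons, replicate numbers were not taken as pairs because not every correlation of deviations was above 0.1. It was -0.10, -0.12 and 0.042 for ASP shGRIN2D with ASP shSCR, 0.26, 0.20, 0.20 and 0.040 for ASP shDHPS with ASP shSCR, and 0.0053, 0.033 and 0.23 for ASP shDHPS with ASP shGRIN2D. The block raised the calls over all genes from 824 to 2150 in ASP shDHPS against ASP shSCR. It raised them from 226 to 611 in ASP shGRIN2D against ASP shSCR and from 550 to 1468 in ASP shDHPS against ASP shGRIN2D. With only the groups compared, 374 genes were called in ASP shGRIN2D against ASP shSCR. Against both shSCR groups, 1286 were called for ASP shDHPS. Without ASP shGRIN2D replicate 1, 2 or 3, the calls in ASP shDHPS against ASP shGRIN2D were 209, 310 and 275. No pair of the 10 genes passed the threshold of co-variation in any setting. *Chac1*, *Ddit3*, *Trib3* and *Sesn2* had the fewest counts of the 10 genes. The least precise difference between the control groups was that of *Ddit4* (standard error 0.30 on the log2 scale).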
